A study of Mus musculus with 12 samples.

Results

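The genes of the cellular response to low oxygen and of glycolysis were followed in MIN6 cells, an insulin-producing line from a mouse insulinoma that is often used in place of primary beta cells. They were a list of 41 gene symbols, of which 39 had a probe set that the platform annotation assigned to that symbol alone. Gpi1 and Eno1 had none, so their RNA signal was not analysed here. The 39 genes are a small set among 19938 genes with such a probe set on 12 Affymetrix arrays. Where a gene had several probe sets, the brightest over the 12 arrays stood for it. The arrays form 4 groups. Cells in Defined Conditions (DC, serum-free at 5% oxygen) had received siRNA against Hes3, which encodes a basic helix-loop-helix repressor (4 arrays, numbered 1, 2, 5 and 7), or a scrambled siRNA (4 arrays, numbered 1 to 4). Cells in Classic Conditions (CC, with serum at 20% oxygen) had received the same siRNAs (2 arrays each). All groups were first grown with 15% serum, transfected at 2 µM siRNA and assayed 12 to 24 hours after transfection. The hours at 5% oxygen and the composition of the DC medium are not given in the sources used here. Oxygen and serum differ together between DC and CC and cannot be told apart. The groups are called DC Hes3, DC scrambled, CC Hes3 and CC scrambled by their labels.

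Cells sense oxygen through prolyl hydroxylases of the Egln family, which mark the alpha subunits of hypoxia-inducible factors (HIF-1α from Hif1a, HIF-2α from Epas1) for degradation while oxygen is present. When oxygen falls the alpha subunits are stabilised as proteins, pair with Arnt and bind DNA at the core sequence RCGTG. Their known targets include glucose transporters, most enzymes of glycolysis, the pyruvate dehydrogenase kinase Pdk1, the mitophagy receptor Bnip3, vascular endothelial growth factor (Vegfa) and the hydroxylase genes Egln1 and Egln3 themselves. Healthy beta cells keep lactate dehydrogenase A (Ldha) low, so that pyruvate is passed to the mitochondria. These arrays measure RNA, not the HIF proteins, whose level is set mainly after translation.

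Promoter sequence was available for 37 of the 41 genes (RefSeq, GRCm38.p6, from 250 bases before to 50 bases after each listed start). Gpi1 and Eno1, whose RNA signal was not measured, are among these 37. The letters ACGTG, searched on both strands so that CACGT also counts, were present in at least one listed window of 26 of these 37 genes (70.3%), against 5886 of 27025 genes in the whole table (21.8%). The 37 genes were chosen as hypoxia target and glycolysis genes and are not a random sample. The higher share describes that choice and is not a test. Gpi1 and Eno1 held 0 ACGTG matches. With GCGTG allowed as well, the shares were 89.2% for the 37 genes and 46.7% for all genes. Among the 15614 genes that also had a single-symbol probe set, 24.4% held ACGTG. Genes with more listed windows have more places for a match. Counted by window, ACGTG was present in 30 of 58 windows of the 37 genes (51.7%), against 6447 of 32851 windows of all genes (19.6%). A match describes the letters and is not evidence of HIF binding in these cells. The 250 bases before the start are shown for 4 genes that differed between DC and CC under both siRNA labels, Ldha and Pdk1 upwards, Ero1a and P4ha2 downwards. Ldha and Pdk1 each had 2 listed windows. The one with the most ACGTG matches was taken, or the first listed where they tied, and the other window held 0 matches for both genes. They are written 5′ to 3′ on the strand of the gene, with ACGTG or CACGT in capitals. Overlapping matches give CACGTG.
Ldha: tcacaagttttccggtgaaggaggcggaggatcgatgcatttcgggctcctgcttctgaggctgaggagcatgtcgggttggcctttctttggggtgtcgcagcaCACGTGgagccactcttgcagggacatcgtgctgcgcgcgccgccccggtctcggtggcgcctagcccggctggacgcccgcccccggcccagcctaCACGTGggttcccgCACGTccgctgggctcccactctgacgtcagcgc
Pdk1: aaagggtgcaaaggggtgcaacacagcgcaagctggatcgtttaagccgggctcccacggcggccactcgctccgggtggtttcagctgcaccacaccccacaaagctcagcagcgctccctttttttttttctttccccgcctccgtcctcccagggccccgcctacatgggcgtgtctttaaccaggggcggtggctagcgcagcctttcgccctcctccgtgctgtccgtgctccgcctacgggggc
Ero1a: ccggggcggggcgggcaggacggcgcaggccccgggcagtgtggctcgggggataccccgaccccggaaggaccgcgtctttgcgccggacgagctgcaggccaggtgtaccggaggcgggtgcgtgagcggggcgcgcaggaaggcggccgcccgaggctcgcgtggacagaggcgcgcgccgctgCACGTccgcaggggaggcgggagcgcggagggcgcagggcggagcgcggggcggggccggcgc
P4ha2: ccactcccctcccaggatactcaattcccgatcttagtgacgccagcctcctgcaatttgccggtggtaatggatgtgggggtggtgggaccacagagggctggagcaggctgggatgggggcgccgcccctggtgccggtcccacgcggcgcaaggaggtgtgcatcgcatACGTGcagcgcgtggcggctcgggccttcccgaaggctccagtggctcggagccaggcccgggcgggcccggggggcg

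The Ldha stretch lies at chr7:46845554-46845803 on the plus strand and holds 3 sites, of which 2 are CACGTG. The Pdk1 stretch at chr2:71872974-71873223, also on the plus strand, has 0 ACGTG sites. The Ero1a stretch at chr14:45318573-45318822 on the minus strand and the P4ha2 stretch at chr11:54100674-54100923 on the plus strand each hold 1 site, and P4ha2 has another within the 50 bases after its start.  The windows of Aldoc, Pfkl and Pfkp, which also differed under both labels, held 1 ACGTG site (after the start), 0 sites and 0 sites. With GCGTG counted as well, the windows with the 50 bases after the start held 2 matches for Pdk1, 1 for Pfkl and 4 for Pfkp.

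Some features of the whole series bear on these values. Arrays labelled Hes3 siRNA did not have a lower Hes3 signal, with a log2 fold change of 0.15 ± 0.0767 in DC and 0.20 ± 0.109 in CC (SE; limma, adjusted p = 0.114 and 1), so the siRNA groups are named by label only. Hes3 had 1 probe set, which was dim, at a mean log2 signal of 7.22 and the 29.8th percentile of genes. With all genes split into 4 equal groups by mean signal, it lay in group 2 from the dim end. For Hes3 siRNA against scrambled siRNA, the median of all genes in that group was 0.21 in DC and 0.04 in CC. Whether Hes3 RNA was reduced cannot be decided from this dim probe set. In DC, genes of similar signal shifted upwards. In CC they shifted little, and Hes3 was at 7.22 and 7.23 in CC Hes3 against 7.23 and 6.82 in CC scrambled arrays. Array medians of the log2 signal were 7.91 to 7.96 in DC Hes3, 7.84 to 7.90 in DC scrambled, 7.81 to 7.84 in CC Hes3 and 7.78 to 7.88 in CC scrambled. DC Hes3 arrays had the narrowest spread over probe sets (SD 1.76 to 1.80, against 1.82 to 1.90 in the other groups), and arrays 1 and 5 of that group hold the highest signal of all 12 arrays for 33.3% and 14.9% of genes. CC scrambled array 2 does so for 15.97%, and the other 9 arrays for at most 6.47% each. Results that involve DC Hes3 are also given without arrays 1 and 5, and those that turn on a CC scrambled array without it. The mean log2 signal of 11 beta cell markers was 11.08 to 11.25 on every array, and 9 of them, Ins2, Pdx1 and Mafa included, lay in the brightest of 4 equal signal groups. Ucn3 and Slc2a2, at the 32.4th and 39.4th percentile of genes, did not. Of 4 alpha cell markers 2 were measured. Gcg was lower in DC than in CC, with -1.051 under Hes3 siRNA and -0.93 under scrambled siRNA on the log2 scale (limma, adjusted p = 1.50e-05 and 0.000112), while Irx2 was higher under Hes3 siRNA (0.28; adjusted p = 0.0152) and at 0.01 under scrambled siRNA (adjusted p = 0.962). Their part in the differences between DC and CC was not tested. The labels describe samples of a single experiment, so p-values measure only the spread between these samples, which may be technical. In RNA from whole cultures, fewer cells of a kind and less RNA per cell cannot be told apart.

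In DC against CC, 6 genes were higher under both siRNA labels (Ldha, Aldoc, Pdk1, Pfkl, Pfkp and Ndrg1) and 2 were lower under both (Ero1a and P4ha2). Ldha rose 2.03-fold under Hes3 siRNA and 2.31-fold under scrambled siRNA, Aldoc 1.74-fold and 2.12-fold, and Pdk1 1.76-fold and 1.69-fold. Ero1a, which oxidises folding proteins in the endoplasmic reticulum, fell 1.73-fold and 1.45-fold. Under Hes3 siRNA 17 of 39 genes passed an adjusted p of 0.05 (11 higher, 6 lower), beside 40.1% of all genes (21.2% higher, 18.8% lower). Without DC Hes3 arrays 1 and 5 the count was 10 (5 higher, 5 lower), beside 18.2% of all genes (5.86% higher, 12.4% lower). Under scrambled siRNA 10 of 39 passed (7 higher, 3 lower), beside 8.54% of all genes (3.09% higher, 5.45% lower). These are 43.6% of the 39 genes under Hes3 siRNA, near the share of all genes, and 25.6% under scrambled siRNA. The second count was 7 of 39 without CC scrambled array 1, beside 11.9% of all genes, and 6 of 39 without CC scrambled array 2, beside 3.72%. Bright genes were called more often under scrambled siRNA. In the brightest of 4 equal signal groups 7 of 19 genes passed, beside 18.8% of all genes in that group. The median log2 fold change of the 39 genes was 0.18 under Hes3 siRNA and 0.10 under scrambled siRNA, where the medians of all genes were 0.09 and 0.02. Centring each array on its median brought the median of all genes under Hes3 siRNA to -0.02, and the passing genes then split into 5 higher and 7 lower. After quantile normalization the split was 11 higher and 2 lower, and after cyclic loess 10 and 2. Quantile normalization and cyclic loess each ended the calls under Hes3 siRNA of Hif1a, Higd1a, P4ha1, P4ha2, Ankrd37, Hk1 and Hk2, and that of P4ha2 under scrambled siRNA. Centring ended those of Vegfa, Higd1a, Fam162a, Ankrd37, Hk2 and Pfkp under Hes3 siRNA, and that of Pfkp under scrambled siRNA. By the arrays alone, with no test, the DC and CC arrays did not overlap under Hes3 siRNA for 14 genes upwards and 6 downwards, beside 61.8% of all genes (38.4% higher, 23.4% lower). Under scrambled siRNA this held for 16 genes upwards and 6 downwards, beside 27.9% of all genes (13.8% higher, 14.1% lower). Leaving DC Hes3 arrays 1 and 5 out of the shared estimate of spread gave 8 higher and 5 lower genes under scrambled siRNA, beside 10.9% of all genes (4.19% higher, 6.72% lower).

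**Figure D1:**
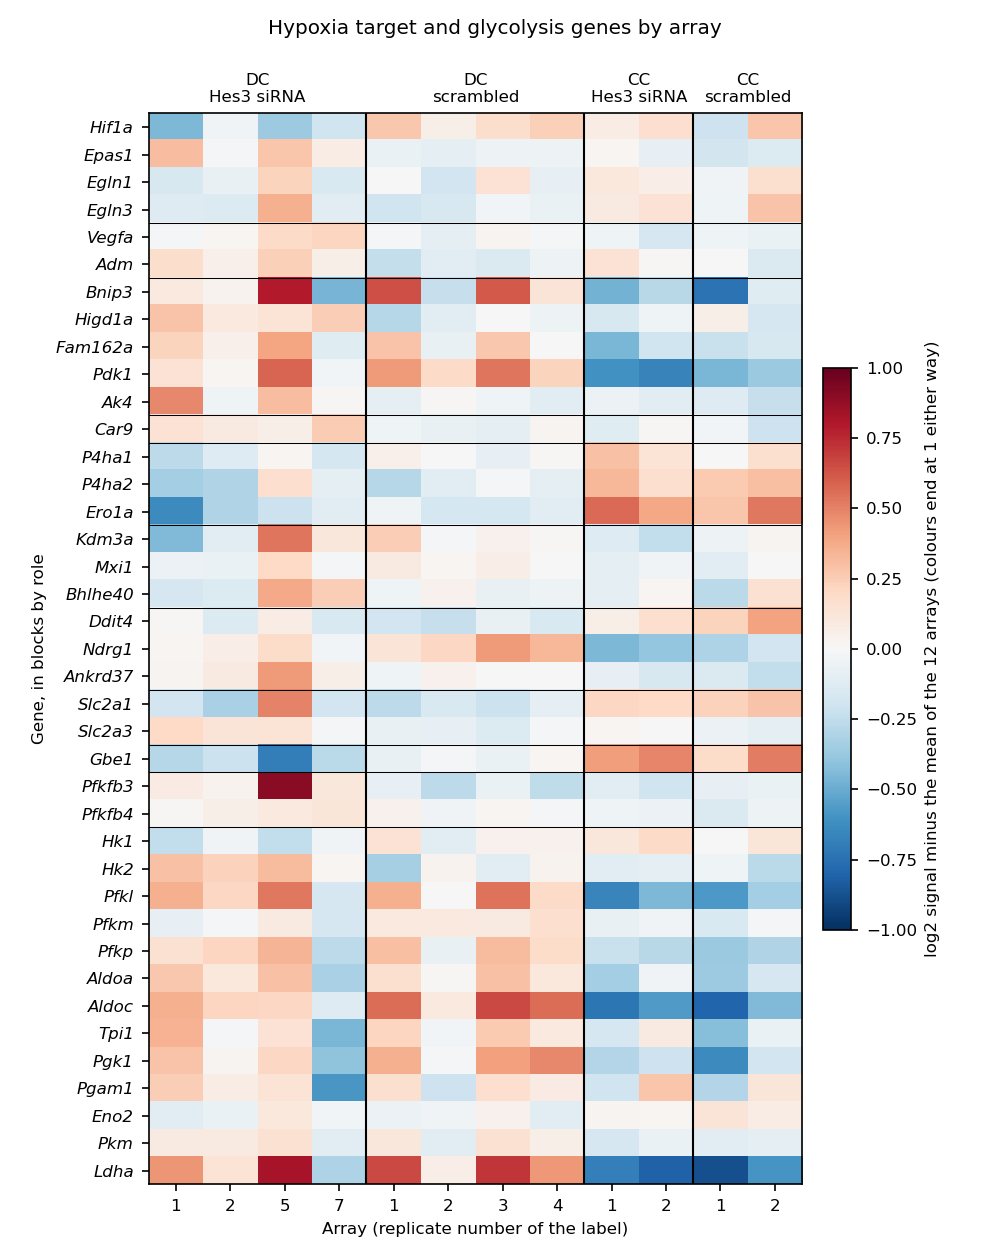
Signal of the 39 genes (rows, grouped by role) on the 12 arrays (columns, by group and replicate number), as the log2 signal minus the gene's mean over the 12 arrays. Ldha, Aldoc, Pdk1 and Pfkl are below their mean on all 4 CC arrays, Ero1a and Gbe1 are above it there, and DC Hes3 array 5 stands out for Pfkfb3, Bnip3, Egln3 and Slc2a1.

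The comparisons under the 2 siRNA labels use different arrays. Of the genes that passed, 8 did so in both, in the same direction: Pdk1, Ndrg1, Pfkl, Pfkp, Aldoc and Ldha higher, P4ha2 and Ero1a lower. They make up 47.1% of the genes called under Hes3 siRNA and 80% of those called under scrambled siRNA. Over all genes the corresponding shares were 16.6% and 77.9%, so the share of the scrambled list is near that of all genes. Of all genes tested, 6.65% were called the same way in both (1.84% higher, 4.81% lower). The sign of the fold change was the same for 33 of 39 genes. The fold changes under both labels correlated with Pearson's r = 0.83 over the 39 genes and 0.69 over all genes, as a description across genes, which are not independent replicates. Apart from a 1.5-fold minimum, which was applied only to counts, every alternative run kept the calls of Pdk1, Ndrg1 and Aldoc in both comparisons. The same held for Ldha under scrambled siRNA, and for Pfkl, Ero1a and Gbe1 under Hes3 siRNA.

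**Figure D2:**
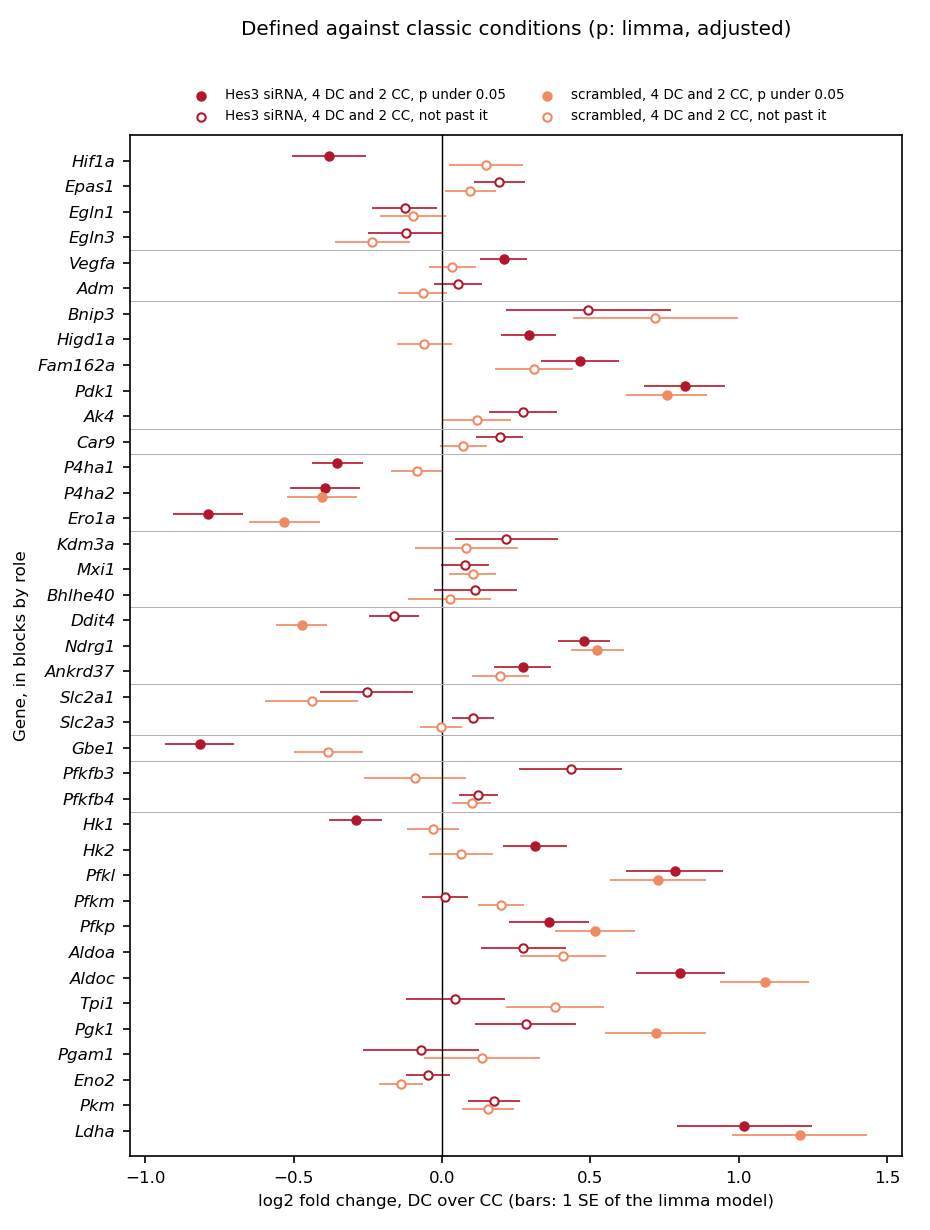
log2 fold change of DC over CC for each of the 39 genes (points; bars are 1 SE of the limma model) under Hes3 siRNA and scrambled siRNA, 4 DC and 2 CC arrays each. Filled points passed an adjusted p of 0.05; Ldha, Aldoc, Pdk1, Pfkl, Pfkp and Ndrg1 are filled to the right of 0 under both labels, and Ero1a and P4ha2 to the left.

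Of the 13 measured glycolysis enzymes, 5 rose and 1 fell under Hes3 siRNA, and 5 rose and 0 fell under scrambled siRNA. That is 46.2% and 38.5% of the 13, beside 40.1% and 8.54% of all genes. Their median log2 fold changes were 0.27 and 0.38. Without DC Hes3 arrays 1 and 5 the count under Hes3 siRNA was 3 higher and 0 lower, beside 18.2% of all genes, with a median of 0.08. Ldha, which reduces pyruvate to lactate, had log2 signals of 11.36, 11.06, 11.75 and 10.62 in DC Hes3 arrays, 11.59, 10.99, 11.64 and 11.36 in DC scrambled arrays, 10.24 and 10.12 in CC Hes3 arrays, and 10.05 and 10.33 in CC scrambled arrays. Every DC array was above every CC array, and the DC Hes3 arrays were the most spread. The log2 fold change was 1.02 ± 0.227 under Hes3 siRNA and 1.21 ± 0.227 under scrambled siRNA (SE; limma, adjusted p = 0.00380 and 0.00285). The first call was lost without CC Hes3 array 2 (adjusted p = 0.0530), and without DC Hes3 arrays 1 and 5 the fold change was 0.66 (adjusted p = 0.0266).

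Aldoc, an aldolase that splits fructose 1,6-bisphosphate, gave 9.51, 9.37, 9.36 and 9.02 in DC Hes3, 9.71, 9.25, 9.82 and 9.71 in DC scrambled, 8.43 and 8.59 in CC Hes3, and 8.36 and 8.71 in CC scrambled arrays. The groups did not overlap under either label, with log2 fold changes of 0.80 ± 0.150 and 1.09 ± 0.150 (SE; limma, adjusted p = 0.00116 and 0.000248). Its relative Aldoa was far brighter, at 12.0 to 12.7 over all arrays, and did not pass, with 0.27 ± 0.144 and 0.41 ± 0.144 (adjusted p = 0.129 and 0.103). Signals of different probe sets are not levels that can be ranked between genes. The phosphofructokinase genes encode the enzyme that commits sugar to glycolysis. Its liver-type subunit Pfkl gave 9.81, 9.67, 9.99 and 9.29 in DC Hes3, 9.82, 9.46, 10.01 and 9.65 in DC scrambled, 8.80 and 9.01 in CC Hes3, and 8.89 and 9.12 in CC scrambled arrays, again with no overlap between DC and CC. The fold changes were 0.78 ± 0.163 and 0.73 ± 0.163 (adjusted p = 0.00246 and 0.00936), and the second was 0.61 without CC scrambled array 1 (adjusted p = 0.0687). The platelet-type subunit Pfkp rose by 0.36 ± 0.135 and 0.52 ± 0.135 on the log2 scale (adjusted p = 0.0444 and 0.0239), although array 7 of DC Hes3 (9.88) lay between its CC Hes3 arrays (9.91 and 9.86), and without arrays 1 and 5 the first value was 0.23 (adjusted p = 0.269). The first Pfkp call was also lost without any single array of CC Hes3 or of DC Hes3 other than array 7 (adjusted p from 0.0785 to 0.200). The second was lost without any single array of DC scrambled other than array 2 or of CC scrambled (adjusted p from 0.0516 to 0.109). The muscle-type subunit Pfkm did not pass (0.01 ± 0.0771 and 0.20 ± 0.0771; adjusted p = 0.923 and 0.141).

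Pgk1, which makes the first ATP of glycolysis, gave 11.82, 11.57, 11.74 and 11.14 in DC Hes3, 11.89, 11.51, 11.95 and 12.02 in DC scrambled, 11.24 and 11.33 in CC Hes3, and 10.90 and 11.34 in CC scrambled arrays. It rose under scrambled siRNA (0.72 ± 0.171; limma, adjusted p = 0.0137) and did not pass under Hes3 siRNA (0.28 ± 0.171; adjusted p = 0.182), where DC array 7 fell below both CC arrays. The difference between these fold changes did not pass a test. The scrambled call was lost without CC scrambled array 1 (adjusted p = 0.127). Pgk1 and Pgam1 each had 3 probe sets, of which 2 held identical values, so signal from near-identical copies of these genes cannot be separated. The first step, phosphorylation of glucose, is made by hexokinases. Hk1 gave 11.05, 11.26, 11.05 and 11.26 in DC Hes3, 11.43, 11.18, 11.34 and 11.34 in DC scrambled, 11.41 and 11.48 in CC Hes3, and 11.29 and 11.41 in CC scrambled arrays. It fell by 0.29 on the log2 scale under Hes3 siRNA (SE 0.0883; adjusted p = 0.0190; 0.145 without DC Hes3 arrays 1 and 5, 0.0667 and 0.151 without CC Hes3 array 1 or 2, and 0.448 and 0.326 after quantile and loess normalization) and did not pass under scrambled siRNA (-0.03 ± 0.0883; adjusted p = 0.913). Its dimmer second probe set gave -0.10 and 0.08 (adjusted p = 0.309 and 0.671).

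Hk2, the form most often listed as a HIF target, was dim in every group, at 7.41, 7.35, 7.44 and 7.14 in DC Hes3, 6.79, 7.15, 7.02 and 7.15 in DC scrambled, 7.02 and 7.03 in CC Hes3, and 7.08 and 6.85 in CC scrambled arrays. It passed under Hes3 siRNA (0.31 ± 0.108; limma, adjusted p = 0.0333), though not without arrays 1 and 5 together (0.22; adjusted p = 0.200), without either of them alone or without either CC Hes3 array (adjusted p from 0.0663 to 0.143), and not under scrambled siRNA (0.06 ± 0.108; adjusted p = 0.835). The pyruvate kinase gene Pkm gave 12.07, 12.07, 12.14 and 11.87 in DC Hes3, 12.10, 11.88, 12.14 and 12.04 in DC scrambled, 11.81 and 11.91 in CC Hes3, and 11.88 and 11.89 in CC scrambled arrays, and its differences of 0.18 and 0.16 did not pass (adjusted p = 0.113 and 0.373). Tpi1, Pgam1 and Eno2 did not pass under either label, with fold changes from -0.14 to 0.38. Pfkfb3 and Pfkfb4, which set the level of the phosphofructokinase activator fructose 2,6-bisphosphate, did not pass either. Pfkfb3 was at 0.43 ± 0.173 under Hes3 siRNA (adjusted p = 0.0564) and -0.09 ± 0.173 under scrambled siRNA (adjusted p = 0.858). Its signal was 7.91 on DC Hes3 array 5 and 7.05 to 7.12 on the others of that group, all above both CC Hes3 arrays (6.90 and 6.81).

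Among the 5 genes of the mitochondrial block, 3 rose under Hes3 siRNA and 1 under scrambled siRNA, beside 21.2% and 3.09% of all genes. Without DC Hes3 arrays 1 and 5 the first count was 1, beside 5.86%. Pdk1, which inhibits pyruvate dehydrogenase and so holds pyruvate back from the mitochondria, gave 8.44, 8.32, 8.88 and 8.27 in DC Hes3, 8.72, 8.49, 8.83 and 8.52 in DC scrambled, 7.69 and 7.62 in CC Hes3, and 7.84 and 7.93 in CC scrambled arrays. The lowest DC array was above the highest CC array under both labels. The log2 fold changes were 0.82 ± 0.138 and 0.76 ± 0.138 (SE; limma, adjusted p = 0.000511 and 0.00219), and the first was 0.63 without arrays 1 and 5 (adjusted p = 0.00119). Fam162a, a mitochondrial protein linked to cell death in hypoxia, gave 9.42, 9.25, 9.59 and 9.08 in DC Hes3 and 8.742 and 8.996 in CC Hes3 arrays, with the lowest DC array just above the higher CC array, a rise of 0.46 ± 0.132 (adjusted p = 0.0141; 0.116 without arrays 1 and 5, and 0.160 without CC Hes3 array 1). Under scrambled siRNA its difference was 0.31 ± 0.132 (adjusted p = 0.194). Higd1a, a respiratory chain factor, rose by 0.29 ± 0.0923 under Hes3 siRNA at a dim 6.69 to 6.88 in DC Hes3, against 6.44 and 6.56 in CC Hes3 arrays (adjusted p = 0.0232; 0.0863 without arrays 1 and 5, and 0.181 and 0.0716 without CC Hes3 array 1 or 2). A second Higd1a probe set, near the dim end at a mean of 5.13, gave 0.10 (adjusted p = 0.242).

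Bnip3, the mitophagy receptor, varied widely between replicates. Its signals were 9.91, 9.85, 10.61 and 9.35 in DC Hes3, 10.46, 9.58, 10.43 and 9.95 in DC scrambled, 9.34 and 9.54 in CC Hes3, and 9.08 and 9.69 in CC scrambled arrays. The DC and CC arrays overlapped, and the differences of 0.49 ± 0.278 and 0.72 ± 0.278 did not pass (limma, adjusted p = 0.154 and 0.144). A dimmer second Bnip3 probe set did not pass either, with 0.40 and 0.43 (limma fit over all single-symbol probe sets, adjusted p = 0.0963 and 0.219). On it the arrays overlapped under Hes3 siRNA. Under scrambled siRNA they did not, at 9.18, 8.80, 9.27 and 8.92 in DC against 8.46 and 8.77 in CC. Ak4, a mitochondrial adenylate kinase, depended on the probe set. The brighter one, which stands for the gene, gave 0.27 ± 0.115 and 0.12 ± 0.115 (adjusted p = 0.0676 and 0.667). The dimmer one gave 7.86, 7.81, 8.82 and 7.60 in DC Hes3, 8.37, 8.02, 8.49 and 8.15 in DC scrambled, 7.22 and 7.09 in CC Hes3, and 7.00 and 7.39 in CC scrambled arrays, with no overlap between DC and CC. In a limma fit over all single-symbol probe sets its differences were 0.87 ± 0.243 and 1.06 ± 0.243 (adjusted p = 0.0141 and 0.0121). This second probe set was singled out after its values were seen.

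Under Hes3 siRNA the 6 genes that fell were Ero1a, P4ha1, P4ha2, Gbe1, Hk1 and Hif1a, and under scrambled siRNA the 3 were Ero1a, P4ha2 and Ddit4. Ero1a gave 10.06, 10.40, 10.48 and 10.59 in DC Hes3, 10.66, 10.52, 10.52 and 10.58 in DC scrambled, 11.26 and 11.08 in CC Hes3, and 10.98 and 11.22 in CC scrambled arrays. All DC arrays were below all CC arrays. The log2 fold changes were -0.79 ± 0.118 and -0.53 ± 0.118 (SE; limma, adjusted p = 0.000193 and 0.00913), and the second was -0.41 without CC scrambled array 2 (adjusted p = 0.170). The prolyl 4-hydroxylase subunits P4ha1 and P4ha2, which modify collagen and use oxygen as a substrate, are separate from the Egln enzymes. P4ha2 gave 9.19, 9.23, 9.70 and 9.43 in DC Hes3, 9.25, 9.42, 9.52 and 9.44 in DC scrambled, 9.86 and 9.70 in CC Hes3, and 9.79 and 9.83 in CC scrambled arrays, where array 5 of DC Hes3 touched the lower CC array. It fell by 0.39 and 0.41 on the log2 scale (adjusted p = 0.0182 and 0.0436), with narrow margins. The first P4ha2 call was lost without either CC Hes3 array (adjusted p = 0.158 and 0.0590), and the second without any single array of DC scrambled or CC scrambled (adjusted p from 0.0506 to 0.240). Quantile normalization and cyclic loess also ended both P4ha2 calls. P4ha1 fell by 0.35 under Hes3 siRNA (adjusted p = 0.00633; 0.0977 without CC Hes3 array 1, and 0.122 and 0.129 after quantile and loess normalization) and did not pass under scrambled siRNA (-0.09 ± 0.0855; adjusted p = 0.678).

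Gbe1, the branching enzyme of glycogen synthesis, gave 8.81, 8.88, 8.41 and 8.83 in DC Hes3, 9.02, 9.08, 9.03 and 9.12 in DC scrambled, 9.51 and 9.58 in CC Hes3, and 9.28 and 9.61 in CC scrambled arrays. DC and CC did not overlap under either label. It fell by 0.82 under Hes3 siRNA (SE 0.116; limma, adjusted p = 0.000123) and by 0.69 without arrays 1 and 5 (adjusted p = 0.000319), while under scrambled siRNA -0.38 ± 0.116 missed the threshold (adjusted p = 0.0522). Ddit4, an inhibitor of mTORC1 that is induced by hypoxia and other stresses in many cells, gave 9.04, 8.89, 9.10 and 8.87 in DC Hes3, 8.83, 8.79, 8.95 and 8.87 in DC scrambled, 9.08 and 9.19 in CC Hes3, and 9.24 and 9.42 in CC scrambled arrays. It fell by 0.47 under scrambled siRNA (SE 0.0851; adjusted p = 0.00199; 0.0561 without CC scrambled array 2), and under Hes3 siRNA the difference was -0.16 ± 0.0851 (adjusted p = 0.128), with array 5 inside the CC range. Ndrg1, a growth-related target that is used as a hypoxia marker, went the other way, with 9.58, 9.62, 9.74 and 9.53 in DC Hes3, 9.69, 9.77, 9.98 and 9.89 in DC scrambled, 9.11 and 9.17 in CC Hes3, and 9.25 and 9.37 in CC scrambled arrays. It rose by 0.48 ± 0.0884 and 0.52 ± 0.0884 (adjusted p = 0.00106 and 0.00123).

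The glucose transporter gene Slc2a1 (GLUT1), a textbook HIF target, was not higher in DC. It gave 10.08, 9.95, 10.77 and 10.09 in DC Hes3, 10.01, 10.13, 10.06 and 10.18 in DC scrambled, 10.48 and 10.47 in CC Hes3, and 10.51 and 10.57 in CC scrambled arrays. Array 5 of DC Hes3 was the highest of all 12, and each of the other 7 DC arrays was below every CC array. With all arrays the differences did not pass (-0.25 ± 0.156 and -0.44 ± 0.156; limma, adjusted p = 0.186 and 0.104). Without array 5 the first was -0.44 (adjusted p = 0.00127). The second had an adjusted p of 0.00317 when the fit used only the arrays compared, which leaves out the spread that array 5 adds. Slc2a3 (GLUT3) was dim, at 6.70 to 7.04 over the 12 arrays, and did not pass (0.10 ± 0.0718 and -0.003 ± 0.0718; adjusted p = 0.235 and 0.990). Slc2a2 (GLUT2), the main glucose transporter of mouse beta cells, is not among the 41 genes and gave 7.85, 7.67, 7.80 and 7.81 in DC Hes3, 7.68, 7.56, 7.61 and 7.51 in DC scrambled, 7.62 and 7.58 in CC Hes3, and 7.67 and 7.40 in CC scrambled arrays, with differences of 0.18 and 0.05 (adjusted p = 0.0944 and 0.816).

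Of the 4 oxygen sensing genes, 0 rose and 1 fell under Hes3 siRNA, beside 40.1% of all genes (18.8% lower). Under scrambled siRNA 0 passed, beside 8.54% of all genes. Without DC Hes3 arrays 1 and 5, 0 of the 4 passed under Hes3 siRNA, beside 18.2% of all genes. Hif1a gave 9.08, 9.49, 9.17 and 9.33 in DC Hes3, 9.79, 9.59, 9.71 and 9.76 in DC scrambled, 9.60 and 9.69 in CC Hes3, and 9.32 and 9.81 in CC scrambled arrays. It fell by 0.38 under Hes3 siRNA (SE 0.124; limma, adjusted p = 0.0265), and by 0.24 with an adjusted p of 0.201 without arrays 1 and 5. The Hif1a call was also lost without either of these arrays alone or without either CC Hes3 array (adjusted p from 0.0622 to 0.169). Under scrambled siRNA the difference was 0.15 ± 0.124 (adjusted p = 0.608). Epas1 was dimmer, with 7.80, 7.48, 7.77 and 7.58 in DC Hes3, 7.43, 7.41, 7.45 and 7.45 in DC scrambled, 7.51 and 7.42 in CC Hes3, and 7.32 and 7.36 in CC scrambled arrays, and did not pass (0.19 ± 0.0865 and 0.10 ± 0.0865; adjusted p = 0.0826 and 0.637). Egln1 gave 8.60, 8.68, 8.99 and 8.60 in DC Hes3, 8.75, 8.57, 8.90 and 8.68 in DC scrambled, 8.87 and 8.82 in CC Hes3, and 8.73 and 8.92 in CC scrambled arrays. Egln3, often the most inducible of the hydroxylases, gave 7.81, 7.81, 8.30 and 7.82 in DC Hes3, 7.74, 7.78, 7.91 and 7.87 in DC scrambled, 8.03 and 8.08 in CC Hes3, and 7.90 and 8.22 in CC scrambled arrays. Neither passed, with Egln1 at -0.13 and -0.10 (adjusted p = 0.347 and 0.721) and Egln3 at -0.12 and -0.23 (adjusted p = 0.419 and 0.335). Apart from array 5, every DC Hes3 array was below both CC Hes3 arrays for both hydroxylase genes.

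Secreted and surface targets showed small differences. Vegfa was bright and nearly flat, with 11.31, 11.34, 11.52 and 11.54 in DC Hes3, 11.32, 11.24, 11.35 and 11.31 in DC scrambled, 11.28 and 11.16 in CC Hes3, and 11.28 and 11.26 in CC scrambled arrays. It passed narrowly under Hes3 siRNA (0.21 ± 0.0797; limma, adjusted p = 0.0486), but not without arrays 1 and 5 together (0.0788), without DC Hes3 array 5 or 7, or without either CC Hes3 array (adjusted p from 0.0871 to 0.317), and not under scrambled siRNA (0.03 ± 0.0797; adjusted p = 0.886). The peptide hormone gene Adm and the carbonic anhydrase gene Car9, which encodes an enzyme of the cell surface, did not pass. Their fold changes were 0.05 and -0.07 for Adm and 0.19 and 0.07 for Car9 (adjusted p from 0.0601 to 0.751). Ankrd37 rose under Hes3 siRNA (7.96, 8.02, 8.36 and 7.99 in DC Hes3, against 7.85 and 7.77 in CC Hes3 arrays; 0.27 ± 0.0959, adjusted p = 0.0360), a call that was lost without DC Hes3 array 5 or either CC Hes3 array (adjusted p from 0.0688 to 0.205), and did not pass under scrambled siRNA (0.20 ± 0.0959; adjusted p = 0.281). The histone demethylase gene Kdm3a and the transcription repressor genes Mxi1 and Bhlhe40 did not pass under either label, with fold changes from 0.03 to 0.22.

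**Figure D3:**
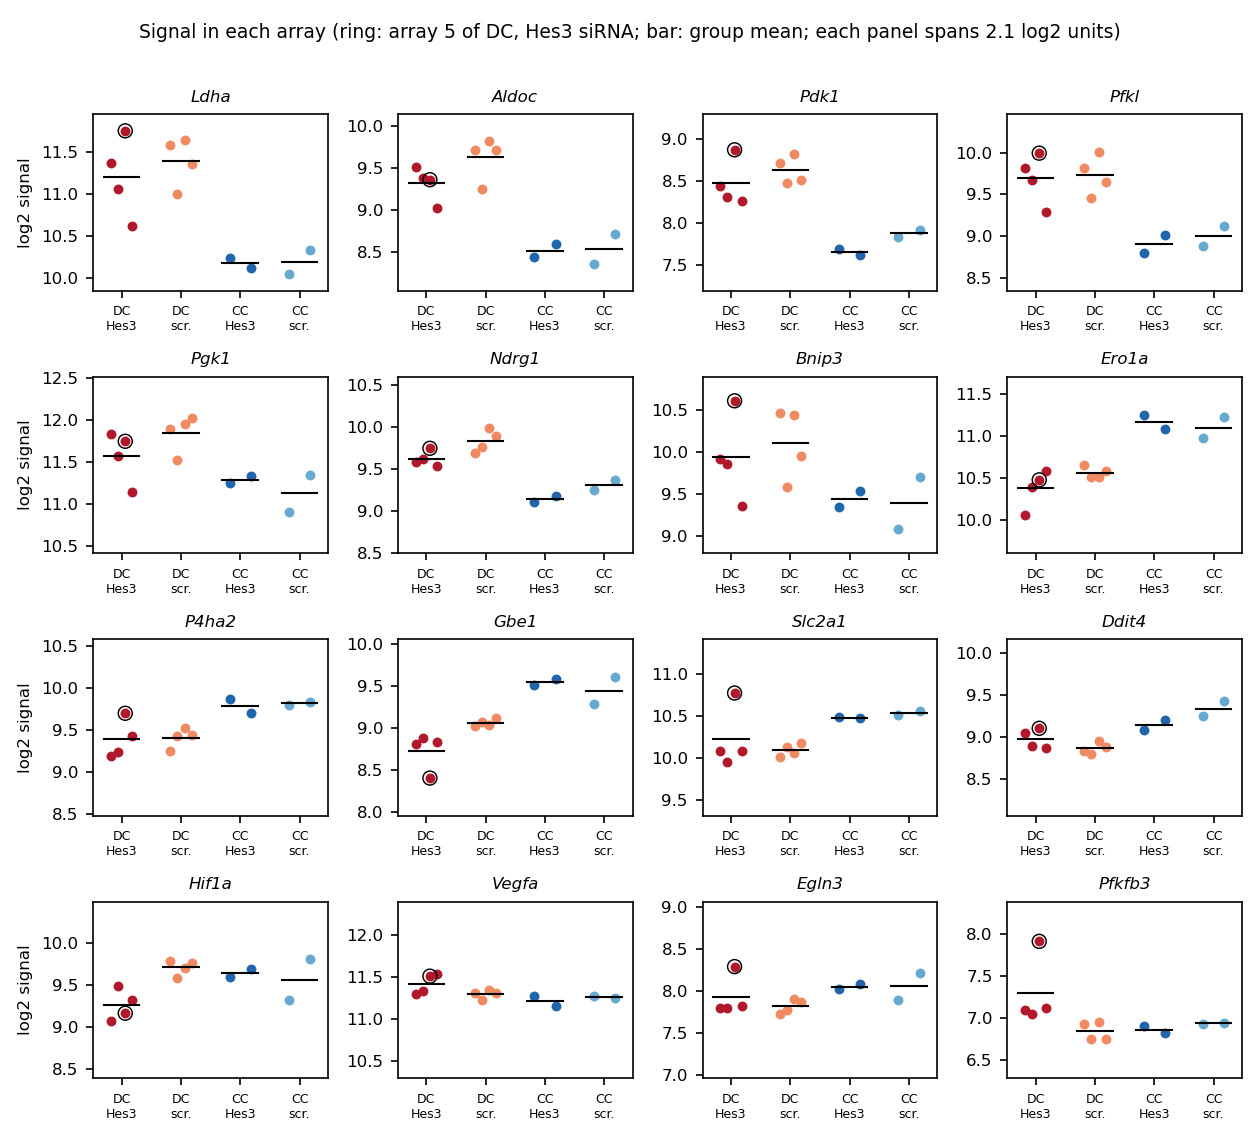
log2 signal of 16 genes on each array (points) by group, with the group mean as a bar and DC Hes3 array 5 ringed. DC and CC arrays are apart for Ldha, Aldoc, Pdk1, Pfkl, Ndrg1, Ero1a and Gbe1, and the ringed array is far above its group for Slc2a1, Egln3 and Pfkfb3 and below it for Gbe1.

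Within a group, many of these genes were high or low on the same array. DC Hes3 array 5 was the highest of its group for 24 of 39 genes (61.5%), against 21.3% of all genes, and the highest of all 12 arrays for 17 of them, against 14.9% of all genes. These include Bnip3 at 10.61, Pfkfb3 at 7.91, Kdm3a at 9.78, Egln3 at 8.30, Slc2a1 at 10.77 and Ldha at 11.75. DC Hes3 array 7 was the lowest of its group for 17 genes (43.6%, against 37.3% of all genes). Among DC scrambled arrays, array 3 was the highest for 18 genes (46.2%, against 21.7%) and array 2 the lowest for 21 (53.8%, against 17.98%). CC scrambled array 2 was above array 1 for 30 of 39 genes (76.9%, against 42.4%). The labels give no separate culture, time or oxygen measurement for single arrays. The pattern was singled out after its values were seen and carries no test.

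Hes3 siRNA against scrambled siRNA was compared in each condition. In CC, 0 of 39 genes passed, as did 0% of all genes (limma), with 5 genes whose arrays did not overlap upwards and 7 downwards, beside 26.9% of all genes (13.9% higher, 13.1% lower). Of the 39 genes, 0 had an unadjusted p under 0.05, against 415 of 19938 genes. Fold changes ran from -0.22 for Pdk1 to 0.21 for Tpi1, and Ldha, at 10.24 and 10.12 in CC Hes3 arrays and 10.05 and 10.33 in CC scrambled arrays, differed by -0.01 ± 0.262 (SE). With 2 arrays a group, differences of the size of these standard errors were not detectable.

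In DC, 12 of 39 genes passed (8 higher, 4 lower), beside 47.2% of all genes (28.9% higher, 18.3% lower), and 0 passed without arrays 1 and 5, beside 1.66% of all genes (0.246% higher, 1.41% lower). The DC Hes3 and DC scrambled arrays did not overlap for 6 genes upwards and 3 downwards, beside 40.9% of all genes (23.9% higher, 17% lower). Hif1a fell by 0.45 (SE 0.102; limma, adjusted p = 0.00564), with all 4 DC Hes3 arrays (9.08 to 9.49) below all 4 DC scrambled arrays (9.59 to 9.79), and by 0.30 without arrays 1 and 5 (adjusted p = 0.107). Gbe1 fell by 0.33 (adjusted p = 0.0135), with no overlap between the groups, and by 0.21 without arrays 1 and 5 (adjusted p = 0.126). Ndrg1 fell by 0.21 and Pfkm by 0.16 (adjusted p = 0.0264 and 0.0499). Higher were Pfkfb3 (0.45 ± 0.142), Hk2 (0.31 ± 0.0882), Higd1a (0.30 ± 0.0753), Adm (0.27 ± 0.0664), Ak4 (0.25 ± 0.0938), Epas1 (0.22 ± 0.0706), Slc2a3 (0.19 ± 0.0586) and Car9 (0.18 ± 0.0645), with adjusted p from 0.00758 to 0.0405. The dimmer Ak4 probe set went the other way, at -0.23 (limma fit over all single-symbol probe sets, adjusted p = 0.335). With the mean of its probe sets the Ak4 call was lost. Pfkfb3 gave 7.09, 7.05, 7.91 and 7.12 in DC Hes3, against 6.92, 6.75, 6.95 and 6.75 in DC scrambled arrays. When single DC arrays were left out, the calls of Hif1a, Gbe1, Adm and Higd1a were kept. Those of Pfkfb3 and Hk2 were lost without 1 array each (DC scrambled array 4, adjusted p = 0.0526, and DC scrambled array 1, adjusted p = 0.0505). Epas1 was lost without DC Hes3 array 1 or 5 (0.0644 and 0.0691) and Slc2a3 without DC Hes3 array 1 or DC scrambled array 3 (0.0510 and 0.0548). Ndrg1, Ak4, Car9 and Pfkm were each lost without any of 4 to 7 single DC arrays (adjusted p from 0.0551 to 0.136). Adm gave 7.46, 7.34, 7.52 and 7.34 in DC Hes3, against 7.05, 7.18, 7.14 and 7.23 in DC scrambled arrays.

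The direction of these 12 genes followed their brightness. With all genes split into 4 equal groups by mean signal, the medians of all genes in this comparison were 0.15 in the dimmest group, then 0.21, -0.03 and -0.15 in the brightest. Of the 11 measured genes in the 2 dimmer groups, 7 were higher and 0 lower, and of the 28 in the 2 brighter groups, 1 was higher and 4 lower. All genes were called in shares of 38.1%, 63.1%, 44.3% and 43.3% in these signal groups, from dim to bright. With each array centred on its median the split was 3 higher and 7 lower, after quantile normalization 3 and 2, and after cyclic loess 1 and 2. Marker genes of other cell types were also compared. All 4 measured acinar markers rose, as did 3 of 4 duct, 4 of 6 fibroblast, 2 of 4 endothelial and 2 of 4 macrophage markers, and 0 of these fell. Of all genes, 28.9% were higher. Without DC Hes3 arrays 1 and 5, 0 markers of these lists passed, beside 1.66% of all genes. Those that rose include Col1a1, Col1a2, Sox9, Cela2a and Krt7, which lie in the third signal group, while Cd68 was at -0.09 (limma, adjusted p = 0.379). Islet markers were mixed. Of the 2 measured alpha cell markers, Irx2 rose by 0.27 (adjusted p = 0.00697) and Gcg was at -0.08 (adjusted p = 0.483). The delta cell marker Hhex rose by 0.22 (adjusted p = 0.0198) and Sst, at 0.23, did not pass (adjusted p = 0.108). Of 11 beta cell markers 2 rose and 3 fell. Without DC Hes3 arrays 1 and 5, 0 of these islet markers passed. The mean of 4 acinar markers was 7.34 to 7.62 in DC Hes3 and 7.10 to 7.27 in DC scrambled arrays, that of 4 duct markers 7.31 to 7.49 and 7.09 to 7.22, that of 6 fibroblast markers 7.69 to 7.95 and 7.50 to 7.60, and that of 4 endothelial markers 6.92 to 7.11 and 6.78 to 6.85. Their part in the result was not tested. The difference between the siRNA comparisons in DC and in CC passed for 0 of 39 genes, as for 0% of all genes (limma; smallest adjusted p of the 39 genes 0.202), with an unadjusted p under 0.05 for 6 of 39 genes and for 3471 of all genes. Without CC scrambled array 2 it passed for Hif1a (-0.77), Gbe1 (-0.59) and Higd1a (0.46), with adjusted p from 0.0124 to 0.0494, beside 10.3% of all genes.

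**Figure D4:**
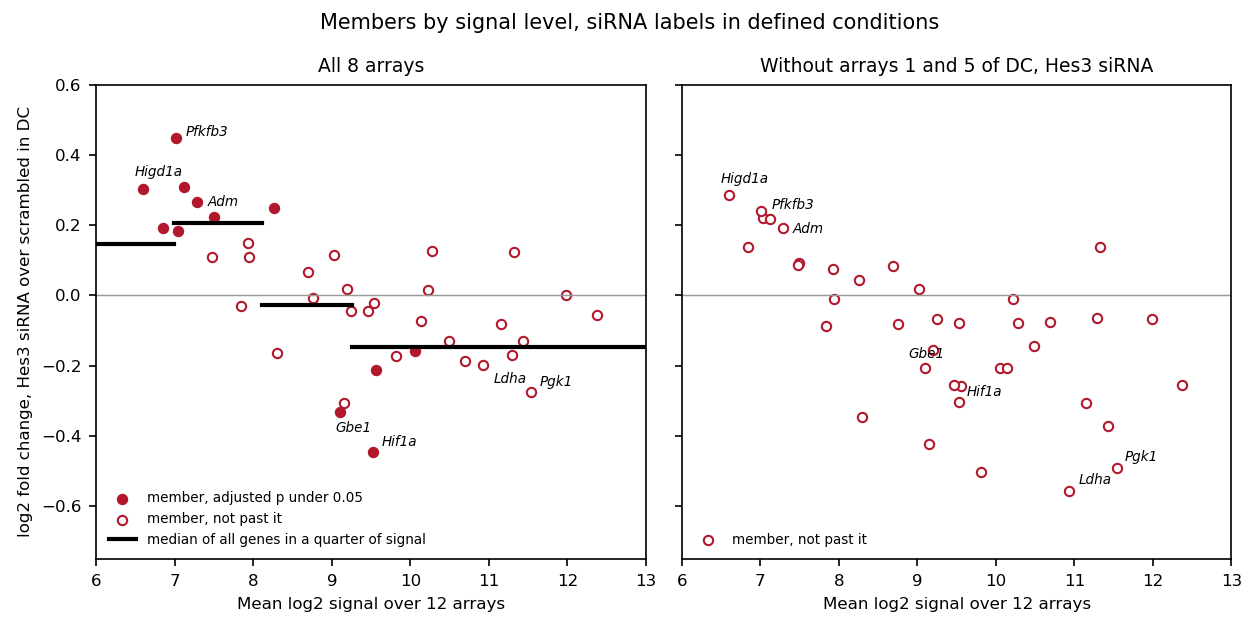
log2 fold change of DC Hes3 over DC scrambled for each of the 39 genes against its mean log2 signal over the 12 arrays, with all 8 arrays (left) and without DC Hes3 arrays 1 and 5 (right). Black bars are the medians of all genes in 4 equal groups by signal; filled points passed an adjusted p of 0.05, and 0 points are filled in the right panel.

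Genes of the same pathways outside the 39 were counted from lists fixed by symbol. Of 27 measured further HIF targets, 7 rose and 4 fell in DC against CC under Hes3 siRNA, and 3 rose and 1 fell under scrambled siRNA. These are 40.7% and 14.8% of the 27, beside 40.1% and 8.54% of all genes. Without DC Hes3 arrays 1 and 5 the first count was 2 and 4, beside 18.2% of all genes. Insig2, which restrains sterol synthesis, fell by 0.87 and 0.69 on the log2 scale (limma, adjusted p = 9.84e-06 and 0.000179). Mif, a cytokine, rose by 0.57 and 0.70 (adjusted p = 0.0210 and 0.0197; 0.185 for the first without arrays 1 and 5), and the lipid droplet gene Plin2 by 0.29 and 0.34 (adjusted p = 0.0171 and 0.0211). Anln rose under scrambled siRNA (0.49 ± 0.105; adjusted p = 0.00756). Hmox1, Tfrc and Vldlr fell under Hes3 siRNA by 0.63, 0.50 and 0.34 (adjusted p = 0.00246, 0.00814 and 0.00351), and Kdm4b rose by 0.41 (adjusted p = 0.00352). Of the further HIF targets named, only the calls of Insig2 were kept whichever single array was left out. Mif and Plin2 lost theirs under both labels, Anln without CC scrambled array 1, Tfrc and Vldlr without CC Hes3 array 1, and Hmox1 and Kdm4b without CC Hes3 array 2 (adjusted p from 0.0508 to 0.234). In DC Hes3 against DC scrambled, 8 rose and 3 fell, beside 47.2% of all genes, and 0 rose and 1 fell without arrays 1 and 5, where the single gene was Anln (-0.45; adjusted p = 0.0491).

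Of 33 measured further genes of glucose, pyruvate and lactate metabolism, 7 rose and 11 fell under Hes3 siRNA and 4 rose and 3 fell under scrambled siRNA. These are 54.5% and 21.2% of the 33, beside 40.1% and 8.54% of all genes. Without arrays 1 and 5 the first count was 2 and 7, beside 18.2% of all genes. The lactate genes around Ldha moved as follows. Slc16a3, the lactate exporter MCT4, gave 9.77, 9.51, 9.92 and 9.19 in DC Hes3, 9.66, 9.30, 9.82 and 9.65 in DC scrambled, 8.93 and 8.70 in CC Hes3, and 8.76 and 9.08 in CC scrambled arrays, a rise of 0.78 ± 0.172 and 0.69 ± 0.172 (limma, adjusted p = 0.00348 and 0.0180). The call was lost without CC Hes3 array 2 (adjusted p = 0.0657) and without CC scrambled array 1 or DC scrambled array 3 (adjusted p = 0.121 and 0.0531). Slc16a1 (MCT1) fell by 0.43 and 0.50 (adjusted p = 0.00815 and 0.00797), and Ldhb, the other lactate dehydrogenase subunit, by 0.35 and 0.26 (adjusted p = 0.00252 and 0.0371). Without CC scrambled array 2 the second values of Slc16a1 and Ldhb had an adjusted p of 0.0557 and 0.368, and the first of Slc16a1 had 0.0669 and 0.0585 without CC Hes3 array 1 or 2. The second Ldhb call was also lost without any single DC scrambled array (adjusted p from 0.0588 to 0.0959). Txnip, which restrains glucose uptake and follows glucose supply, fell most, by 1.18 and 1.04 (adjusted p = 1.06e-05 and 8.72e-05), at 8.64, 8.47, 8.31 and 8.90 in DC Hes3 and 8.56, 8.66, 8.61 and 8.74 in DC scrambled arrays, against 9.74 and 9.79 in CC Hes3 and 9.53 and 9.83 in CC scrambled arrays. Pcx, pyruvate carboxylase, rose by 0.34 and 0.54 (adjusted p = 0.0128 and 0.00150), the first being lost without either CC Hes3 array (adjusted p = 0.0734 and 0.0924).

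Pdk3, another pyruvate dehydrogenase kinase, passed between the siRNA labels in DC and did not in CC, where each group had 2 arrays. The difference between the siRNA comparisons in DC and in CC passed for 0 of the 33 genes, so a different response of Pdk3 in the 2 conditions was not shown. In CC its signals were 9.32 and 9.46 in CC Hes3 and 9.15 and 9.66 in CC scrambled arrays, where 0 of the 33 genes passed. It fell by 0.81 in DC Hes3 against DC scrambled (SE 0.114; limma, adjusted p = 0.00168) and by 0.64 without arrays 1 and 5 (adjusted p = 0.0340), with signals of 8.52, 8.90, 8.41 and 8.70 in DC Hes3, against 9.57, 9.27, 9.41 and 9.51 in DC scrambled arrays. It was the single gene of its list still called then, of 8 higher and 9 lower with all arrays, beside 1.66% and 47.2% of all genes. Of the 15 genes of oxygen sensing and HIF regulation, which include Hif1a, Epas1, Egln1 and Egln3, 2 rose and 3 fell under Hes3 siRNA and 2 rose and 0 fell under scrambled siRNA. These are 33.3% and 13.3% of the 15, beside 40.1% and 8.54% of all genes. Without arrays 1 and 5 the first count was 2 higher and 0 lower, beside 18.2% of all genes. The coactivator genes Ep300 and Crebbp rose by 0.34 each under scrambled siRNA (adjusted p = 0.00915 and 0.00992), and both calls were lost without CC scrambled array 2 (adjusted p = 0.0798 and 0.140). Under Hes3 siRNA Arnt fell by 0.28 and Hif1an, the asparagine hydroxylase of HIF, by 0.29 (adjusted p = 0.0111 and 0.0156), and neither passed without arrays 1 and 5 (adjusted p = 0.0552 and 0.0884) or without CC Hes3 array 2 (0.0850 and 0.179). In DC Hes3 against DC scrambled 2 rose and 4 fell, beside 47.2% of all genes, and 0 passed without arrays 1 and 5.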

How the data were processed

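Per the labels' protocols, total RNA (250 ng a sample) of MIN6 cells was labelled with a whole-transcript kit for Affymetrix arrays. The authors deposited 1 value per probe set and array (35556 probe sets, 12 arrays). The log2 scale of the deposited values was read from their range (3.94 to 14.4). Summarization, background correction and normalization are not given in the sources used here. The platform annotation of 2016 gave 21789 probe sets a single symbol, and the brightest per gene gave 19938 genes. Dim genes were kept.

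Group means over all 12 arrays were fitted with limma 3.58.1 (lmFit, eBayes; R 4.3.3; 8 residual and 7.62 prior degrees of freedom) for 5 contrasts, with two-sided p-values adjusted by Benjamini-Hochberg over all genes and a threshold of 0.05. The fit was tested on simulated data. Fold changes carry the model's SE. The genes with values per array followed a fixed rule: the oxygen sensors, Vegfa, Slc2a1, Slc2a2, Pdk1, Pgk1, Ldha, Pkm, Hk1 and Hk2, and the members with the largest passing changes; Bnip3, Ak4, Slc16a3, Txnip and Pdk3 were given per array after their values were seen. Genes of other lists were named where they passed, at most 4 in each direction. Members and lists were chosen with earlier results of these data known. Same-numbered arrays of compared groups did not deviate together (correlations of -0.44 to 0.25), so numbers were not used as pairs. No 2 arrays held identical values, and 0 columns were left out.

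Alternatives were quantile and cyclic loess normalization, median centring, a fit without genes below the 40th signal percentile, other eBayes settings, only the arrays compared, the mean of probe sets, array weights, the replicate number as a block, a 1.5-fold minimum, and leaving out arrays. Promoter windows came from RefSeq (GRCm38.p6). The number of arrays limits the precision.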

Additional observations from a re-analysis of the deposited data

Results flagged for a closer look

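In 6 of the 78 groups of 4 arrays examined, 1 array lay far from the other 3 by Dixon's criterion at 95%, which by chance marks about 1 group in 20. All but 1 of them concern DC Hes3 array 5. Its Egln3 signal was 8.30, where the other 3 arrays were at 7.81 to 7.82. Its Pfkfb3 signal was 7.91, where the others were at 7.05 to 7.12. Slc2a1 was at 10.8 on this array and at 9.95 to 10.1 on the others, and Ankrd37 at 8.36 against 7.96 to 8.02. Gbe1 was the low one, at 8.41 against 8.81 to 8.88. In DC scrambled, Pfkm was at 10.2 on array 4, where the other 3 arrays were at 10.15 to 10.16.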

How the results depend on the processing

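The 39 called gene results gave 629 values under the alternatives: 462 kept the call, 167 lost it and 0 turned sign. The 117 uncalled results gave 1757 values, of which 50 passed, all in the same direction, and 160 turned sign. For DC against CC under Hes3 siRNA, the count of 17 genes became 10 without DC Hes3 arrays 1 and 5 and 6 with a 1.5-fold minimum, and ran from 7 (without CC Hes3 array 1) to 22 (without DC Hes3 array 7) when 1 array was left out; it was 8 without CC Hes3 array 2. Quantile normalization gave 11 higher and 2 lower, cyclic loess 10 and 2, and median centring 5 and 7. Under scrambled siRNA, the count of 10 became 5 with a 1.5-fold minimum and ran from 6 (without CC scrambled array 2) to 12. For the siRNA labels in CC, every alternative gave 0. In DC, the count of 12 became 5 after quantile normalization, 3 after cyclic loess, 4 without dim genes, 0 with a 1.5-fold minimum and 0 without arrays 1 and 5, and ran from 7 (without DC Hes3 array 1 or DC scrambled array 3) to 13. Calls over all genes fell there from 9408 to 5736 after quantile normalization, 4297 after cyclic loess, 5436 without dim genes, 331 without arrays 1 and 5 and 620 with the replicate block. Under Hes3 siRNA 7986 genes in DC against CC became 5025 and 5131 after quantile and loess normalization, 3631 without arrays 1 and 5 and 4051 with the block, and under scrambled siRNA 1702 became 1054 with array weights, 804 with the block and 742 without CC scrambled array 2. The difference of the siRNA comparisons gave 0 to 3. The replicate block left 3 residual degrees of freedom and gave 12 and 8 genes in DC against CC under Hes3 and scrambled siRNA, and 0 for the siRNA labels in each condition. The causes were not tested. With 2 CC arrays a group, leaving out 1 assumes that the other varies like the remaining groups.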
